A study of Mus musculus with 6 samples.

Results

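The miR-297, miR-466, miR-467 and miR-669 families are microRNAs (miRNAs) of mouse and other rodents. Many of their mature sequences, but not all, hold short U-G or C-A repeats. Their members were taken by name, as every miRNA of the deposited table whose name begins with one of the 4 family numbers followed by a letter or a hyphen. This gave 32 of 810 miRNAs. The names miR-466b-3p and miR-466p-3p carried one mature sequence, and so did miR-669a-5p and miR-669p-5p. Reads on identical sequences were therefore summed, which left 30 of 806 distinct sequences, named here by the first of each pair. There were 2 sequences of the miR-297 family, 9 of miR-466, 8 of miR-467 and 11 of miR-669. By arm, 21 came from the 5′ side of their hairpin (5p), 6 from the 3′ side (3p), and 3 had no arm in the name.

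Small RNA was measured in small extracellular vesicles (sEV), membrane vesicles released by cells, from the culture medium of cochlear explants of ICR mice at postnatal day 3. The explants were the sensory epithelium of the inner ear with the spiral ganglion removed, and each sample pooled the vesicles of about 80 explants. In 3 samples the explants had received 50 µM cisplatin, a platinum drug that damages hair cells, for 48 h (Cis-sEV). In the other 3 they had received the same volume of PBS over the same time (Ctrl-sEV). The counts were reads on each mature miRNA. The Cis-sEV libraries held 1722359 to 1794175 miRNA reads and the Ctrl-sEV libraries 528952 to 718597. Levels are given in CPM, the reads of a sequence scaled by all miRNA reads of its library. A count of 3 reads stood for 1.67 to 1.74 CPM in Cis-sEV libraries but 4.17 to 5.67 CPM in those of Ctrl-sEV. The Cis-sEV libraries detected 584, 601 and 599 of the 806 sequences and the Ctrl-sEV libraries 257, 264 and 309.

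Marker miRNAs of several cell types were found in the vesicle samples. The culture medium held fetal bovine serum, ultracentrifuged by the authors to remove its vesicles, and its share in these levels was not tested. Summed levels of the hair cell markers miR-183-5p, miR-96-5p and miR-182-5p lay between 59073 and 81525 CPM in Cis-sEV and between 54984 and 55757 CPM in Ctrl-sEV. In the test described below, their log2 fold changes were -0.49, 2.07 and 0.17, so the sum does not stand for each marker. Summed levels of 3 mesenchymal markers were 8748 to 9974 against 2811 to 4518 CPM. Those of 3 neuronal markers were 2000 to 2178 against 939 to 1450 CPM, with 1 neuronal marker at 0 in Ctrl-sEV. Markers of red blood cells (2 of 2, 1081 to 1254 against 1339 to 2733 CPM, 1 at 0 in Ctrl-sEV) and leukocytes (2 of 4 in the table, 260 to 362 against 244 to 561 CPM) were also present. The part of these differences in the results on the 4 families was not tested. In such bulk material, a change in the number of vesicles or cells of a type cannot be told apart from a change in miRNA per vesicle or cell.

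A miRNA is cut from a hairpin precursor and directs the silencing complex to mRNAs that pair with its seed, bases 2 to 8 from the 5′ end. Most members of these families lie as a tandem array of hairpins in an intron of Sfmbt2, which encodes a Polycomb group protein. This locus is imprinted in the mouse, with expression from the paternal allele in the placenta, and the array is known from embryonic stem cells and trophoblast. The 5p arms are rich in U and G and the 3p arms in C and A, so that both arms of a hairpin pair with each other.

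The mature sequences below are those of the deposited table, written 5′ to 3′ in lower case with the seed in capitals. The first set shows the members that the test between the groups called, 4 higher and 1 lower in Cis-sEV.
miR-467d-3p: aUAUACAUacacacaccuacac
miR-467d-5p: uAAGUGCGcgcauguauaugcg
miR-669d-5p: aCUUGUGUgugcauguauaugu
miR-669l-5p: aGUUGUGUgugcauguauaugu
miR-466i-5p: uGUGUGUGugugugugugug

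The second set shows the members with the most reads and those that share a seed with a called one.
miR-467a-5p: uAAGUGCCugcauguauaugcg
miR-467c-5p: uAAGUGCGugcauguauaugug
miR-467e-5p: aUAAGUGUgagcauguauaugu
miR-669c-5p: aUAGUUGUguguggaugugugu
miR-669a-5p: aGUUGUGUgugcauguucaugucu
miR-669f-5p: aGUUGUGUgugcaugugcaugugu

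The third set shows 3p arms, with their C-A repeats, and the miR-297 pair.
miR-466b-3p: aUACAUACacgcacacauaaga
miR-669a-3p: aCAUAACAuacacacacacguau
miR-297a-5p: aUGUAUGUgugcaugugcaugu
miR-297c-5p: aUGUAUGUgugcauguacaugu

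Short motifs recurred through the list. GCAUGU was found in 18 of the 30 members (60.0%) and in 22 of all 806 sequences (2.73%). UGUGUGUG was found in 12 members (40.0%), 11 of them 5p, and in 24 of all sequences (2.98%). ACACACAC stood in 4 members against 6 of all sequences, and AUACAUAC in 4 against 4, all of these members being 3p arms. Motifs were searched in the mature sequences as written, and their matches could overlap one another. The 30 members had 24 different seeds, and 5 seeds were shared by more than 1 member. In all, 8 members differed by 1 base change from another member, 17 by at most 2 and 22 by at most 3, so that the counting of reads could divide them between close relatives, and the values of single members are uncertain to that degree.

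The members were placed by exact match of the mature sequence to hairpins of the GENCODE M21 annotation of GRCm38. Sfmbt2 lies on chromosome 2 at chr2:10370510-10595253, plus strand, and 27 of the 30 members matched hairpins inside it. The 67 matching hairpin genes ran from position 10466663 to 10518279 within 1 intron (chr2:10461473-10523944), and no annotated Sfmbt2 exon lay between them. The hairpin of miR-669l-5p (chr2:10468971-10469068) and that of miR-467d-5p (chr2:10507630-10507714) were the only match of each, whereas miR-467d-3p and miR-467a-5p matched 12 hairpins each and miR-669a-5p matched 15. In all, 17 members matched more than 1 hairpin gene, and their reads cannot be assigned to one. The 3 members with no match in Sfmbt2 were miR-466i-3p (chromosome 13, chr13:17747473-17747593, between genes), miR-467h (chromosome 9) and miR-466i-5p, which is a U-G repeat from end to end and matched 61 annotated miRNA genes.

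As a group, the families made up a small share of the vesicle miRNAs, and the share was larger in Cis-sEV by an amount that depended on the scale and on the most abundant miRNAs. They held 0.136%, 0.169% and 0.153% of the miRNA reads of the Cis-sEV libraries, and 0.105%, 0.0797% and 0.105% of those of the Ctrl-sEV libraries. The means were 0.153% ± 0.0166 and 0.0965% ± 0.0145 (SD, n = 3 each), and these shares did not overlap between the groups. The 95% Wilson intervals, which cover counting error only, did not overlap between groups, with a lowest bound of 0.131% in Cis-sEV and a highest bound of 0.114% in Ctrl-sEV. The ratio of the means was 1.58 in CPM and 1.22 after the TMM factors of edgeR, which correct for differences in composition between libraries. With these factors the groups overlapped, the Cis-sEV libraries being at 1225, 1543 and 1286 CPM and the Ctrl-sEV libraries at 1379, 801 and 1150 CPM. Without miR-467a-5p the mean shares were 0.109% and 0.0827%, and with the 10 most abundant sequences left out of the total they were 0.274% and 0.246%. The most abundant member was miR-467a-5p in each of the 3 Cis-sEV libraries, where it held 26.6% to 32.1% of the member reads. In Ctrl-sEV the first place went to a different member in each library, namely miR-467a-5p (39.2% of member reads), miR-466i-5p (35.6%) and miR-669b-5p (30.7%).

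More members were present in Cis-sEV. At least 1 read was found in Cis-sEV for 30 of 30 members, but in Ctrl-sEV for 10 of 30 (33.3%), while over all 806 sequences these figures were 796 (98.8%) and 398 (49.4%). Single Cis-sEV libraries held 23, 26 and 22 members and single Ctrl-sEV libraries 7, 4 and 8. Members were also counted after thinning by calculation to the depth of the shallowest library. The 3 Cis-sEV libraries would then together hold 29.0 members on average and the 3 Ctrl-sEV libraries 10.0. No thinned figure is given for all 806 sequences, so whether this gap is particular to the members was not tested. Presence in all 3 libraries of a group held for 17 of 30 members in Cis-sEV but 2 in Ctrl-sEV, miR-466i-5p and miR-669c-5p. Over all 806 sequences it held for 428 in Cis-sEV and 179 in Ctrl-sEV. The 10 members with Ctrl-sEV reads were all found in each Cis-sEV library, but were at 0 in 11 of their 30 Ctrl-sEV values. They were found in 1 Ctrl-sEV library in 3 cases, in 2 libraries in 5 cases and in all libraries in 2 cases. The plot of the members by library shows this scatter of Ctrl-sEV levels.

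**Figure D1:**
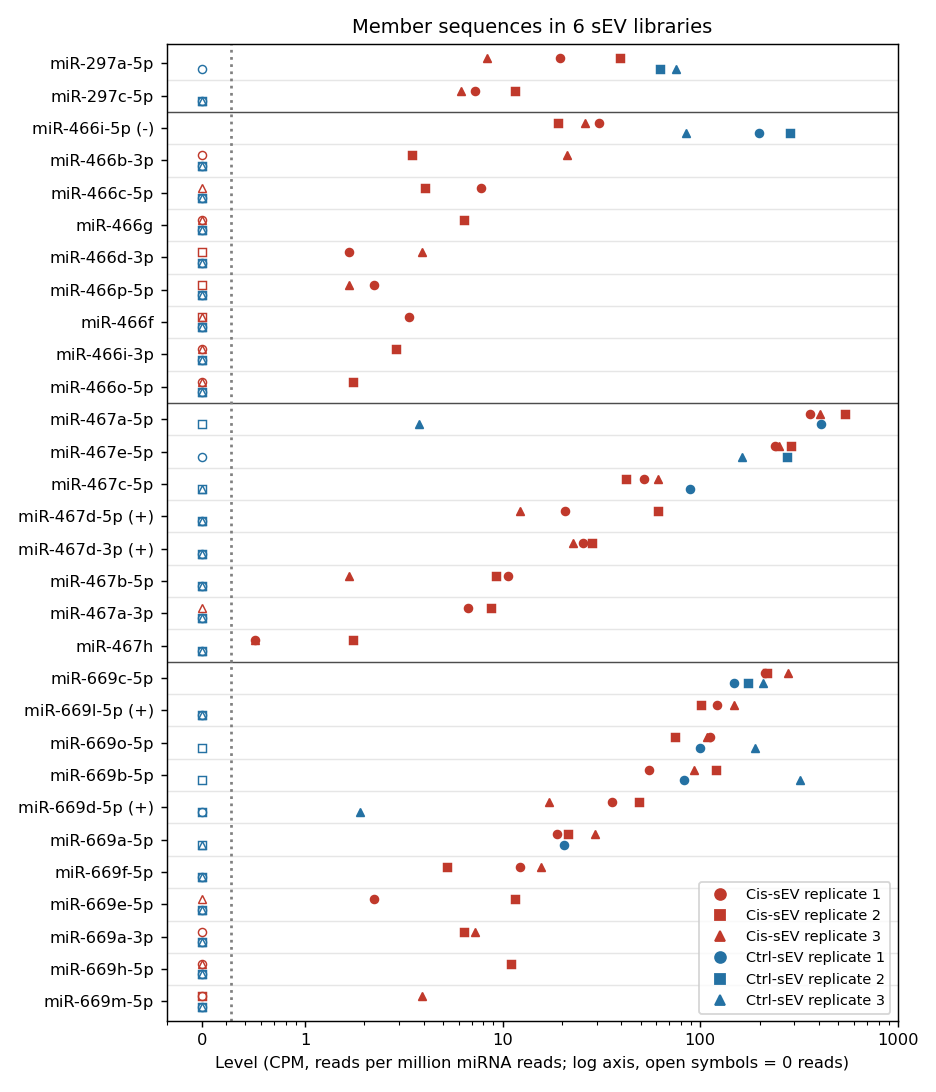
Level of each of the 30 member sequences in the 6 libraries, in CPM on a log axis, with open symbols left of the dotted line for 0 reads, red for Cis-sEV and blue for Ctrl-sEV, and one symbol shape for each replicate. Signs after a name mark the 4 members called higher (+) and the 1 called lower (-) in Cis-sEV. Blue filled symbols appear for 10 members and red ones for all 30.

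The 2 groups were compared with the quasi-likelihood test of edgeR over the whole table, and calls needed both an adjusted p no higher than 0.05 and a log2 fold change of 1 or more in size. Over the table, 351 sequences had enough reads to be tested, of which 83 were called higher (23.6%) and 23 lower (6.55%) in Cis-sEV. Of the 30 members, 13 were tested, 4 were called higher, 1 lower and 8 neither. The median log2 fold change was 0.45 over all 351 sequences, 0.80 with scaling by total miRNA reads and 0.36 with DESeq2 size factors. It was 0.60 over the 13 tested members, 3 of which had 0 Ctrl-sEV reads, and 0.15 over the other 10. A member with no Ctrl-sEV read could be tested only if it was high in Cis-sEV, which held for 3 of the 4 called higher. Of the 10 members with reads in both groups, all tested, 1 was called higher, 1 lower and 8 neither. In CPM, every Cis-sEV library lay above every Ctrl-sEV library for 9 of the 30 members, against 26.7% of all sequences, and below for 1 of the 30, against 4.22%. With TMM factors these counts were 8 of 30 members, against 23.1% of all sequences, and 1 of 30, against 5.83%.

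Among the members called higher, miR-669l-5p had the most reads. It was counted 219, 175 and 267 times in Cis-sEV and 0 times in each Ctrl-sEV library. With 3 reads over the group in place of 0, its level was at least 58.9-fold higher in Cis-sEV (adjusted p = 0.0174, edgeR). This floor covers counting error of the pooled reads only, and not the spread between Ctrl-sEV libraries. That spread was wide, since the 10 members with Ctrl-sEV reads were at 0 in 11 of their 30 Ctrl-sEV values. The 3 Cis-sEV values of 102 to 149 CPM were close to one another and far above the 4.17 to 5.67 CPM that 3 reads would give in a Ctrl-sEV library. It differs by 1 base change from miR-669d-5p, within the seed, and whether the counting divided reads between them was not tested.

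miR-669d-5p was counted 64, 85 and 31 times in Cis-sEV and 0, 0 and 1 times in Ctrl-sEV. The ratio was 48.1 with a 95% Clopper-Pearson interval of 8.53 to 1912 from the single Ctrl-sEV read, and the fitted log2 fold change was 5.34 ± 1.34 (SE, adjusted p = 0.0188, edgeR). It lies in 2 hairpins of the Sfmbt2 array.

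Both arms of the miR-467d hairpin were called higher. miR-467d-3p was counted 46, 49 and 41 times in Cis-sEV and 0 times in each Ctrl-sEV library. By the floor of 3 reads it was at least 12.1-fold higher (adjusted p = 0.00526, edgeR). miR-467d-5p was counted 37, 106 and 22 times in Cis-sEV and 0 times in each Ctrl-sEV library. By the same floor it was at least 14.7-fold higher (adjusted p = 0.0134, edgeR). Both folds cover counting error only. The Cis-sEV values of the 3p arm were even (25.7 ± 2.80 CPM, SD, n = 3), and those of the 5p arm were uneven (31.5 ± 26.4 CPM), with the second library highest. The 3p sequence lies in 12 hairpins, that of miR-467d included, so its reads cannot be tied to the miR-467d hairpin alone.

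The 1 member called lower was miR-466i-5p, the repeat of U and G from end to end. It was counted 55, 33 and 47 times in Cis-sEV and 107, 204 and 45 times in Ctrl-sEV. These were 30.7, 19.2 and 26.2 CPM against 198, 284 and 85.1 CPM, with no overlap between the groups. The log2 fold change was -3.24 ± 0.99 (SE, adjusted p = 0.0400, edgeR). It is one of only 2 members present in every Ctrl-sEV library, and it is not tied to Sfmbt2 by its sequence.

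Each call depended on the libraries or the test used to a different degree. When each library was left out in turn, miR-467d-3p was called in 6 of 6 fits, with an adjusted p of 0.00837 to 0.0313. miR-467d-5p was called in the 4 fits in which it was tested (0.0264 to 0.0476). miR-669l-5p lost its call in 3 fits, without any of the Cis-sEV libraries (adjusted p up to 0.0878). miR-466i-5p lost its call in the same 3 fits (up to 0.202). miR-669d-5p lost its call without Ctrl-sEV replicate 1 (0.0533) or 2 (0.0571). Scaling by total miRNA reads ended the call of miR-466i-5p (0.0605), and testing without a filter on low counts ended those of miR-466i-5p (0.07) and miR-669d-5p (0.0740). With limma-voom, 1 call was left, that of miR-669l-5p (adjusted p = 0.00305). miR-466i-5p kept its sign in all of these fits. miR-467d-3p, miR-467d-5p and miR-669l-5p had no Ctrl-sEV read, so their sign could not turn. That of miR-669d-5p, with 1 Ctrl-sEV read, could hardly turn.

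**Figure D2:**
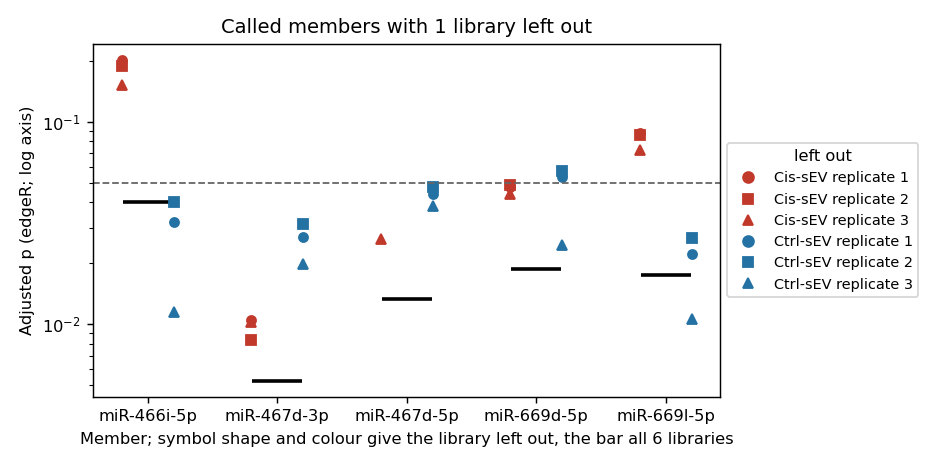
Adjusted p of edgeR, on a log axis, for the 5 called members with all 6 libraries (black bar) and with 1 library left out (symbol, coloured and shaped by the library that was left out). The dashed line is the limit of 0.05, and miR-467d-5p has no symbol for Cis-sEV replicates 1 and 2, without which it was not tested. The red symbols of miR-466i-5p and miR-669l-5p lie above the limit.

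The most abundant members of Cis-sEV, miR-467a-5p, miR-467e-5p and miR-669c-5p, were not called. In Ctrl-sEV the highest mean was that of miR-466i-5p (189 CPM), called lower above. miR-467a-5p, which has the same seed as miR-292a-3p of the embryonic stem cell cluster miR-290, was counted 648, 937 and 729 times in Cis-sEV and 222, 0 and 2 times in Ctrl-sEV. The fitted log2 change was 1.10 ± 1.89 (SE, adjusted p = 0.751, edgeR), and the first Ctrl-sEV library, at 411 CPM, lay within the Cis-sEV range of 362 to 544 CPM. Without that library, the log2 fold change was 7.57 (adjusted p = 0.0240).

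miR-467e-5p was counted 431, 497 and 449 times in Cis-sEV and 0, 198 and 86 times in Ctrl-sEV. The second Ctrl-sEV library, at 276 CPM, lay within the Cis-sEV range of 241 to 289 CPM, and the log2 fold change was 0.60 ± 1.48 (SE, adjusted p = 0.839, edgeR). The Ctrl-sEV library without a read of miR-467e-5p was the one with the most reads of miR-467a-5p.

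miR-669c-5p was, beside miR-466i-5p, the only member with reads in all 6 libraries. It was counted 380, 376 and 501 times in Cis-sEV and 80, 126 and 110 times in Ctrl-sEV, or 237 ± 37.1 and 177 ± 29.9 CPM (SD, n = 3 each). In CPM the groups did not overlap, the lowest Cis-sEV library being at 212 CPM and the highest Ctrl-sEV library at 208 CPM, but with TMM factors they did (191 to 235 against 176 to 228 CPM). The fitted log2 fold change was 0.06 ± 0.59 (SE, adjusted p = 0.952, edgeR), and its sign turned with DESeq2 size factors (-0.03).

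miR-297a-5p, the most abundant of the miR-297 pair, was counted 35, 68 and 15 times in Cis-sEV and 0, 45 and 40 times in Ctrl-sEV. The fitted log2 change was -1.27 ± 1.67 (SE, adjusted p = 0.685, edgeR), and the groups overlapped. miR-297c-5p, 1 base change away and with the same seed, was counted 13, 20 and 11 times in Cis-sEV and 0 times in Ctrl-sEV. By the floor of 3 reads, which covers counting error only, it was at least 3.92-fold higher. It had too few reads for the test.

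The remaining tested members, miR-467c-5p, miR-669a-5p, miR-669b-5p and miR-669o-5p, had log2 fold changes of 0.24, 1.23, -0.96 and -0.38 with adjusted p of 0.952, 0.685, 0.764 and 0.917 (edgeR). Each had reads in every Cis-sEV library and was at 0 in 1 or 2 Ctrl-sEV libraries. For miR-467c-5p and miR-669a-5p all Ctrl-sEV reads (48 and 11) lay in the first library, without which both were called higher (adjusted p = 0.0252 and 0.0270). For miR-669a-5p the value rested on summing it with the identical miR-669p-5p, since the miR-669a-5p counts as deposited gave a log2 fold change of 7.71 and a call (adjusted p = 0.0053, edgeR). miR-669b-5p lay at 83.4, 0 and 321 CPM in Ctrl-sEV.

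The other 17 members had too few reads to be tested. All were at 0 reads in Ctrl-sEV and none passed 38 reads in a library. Together they held 354 reads in Cis-sEV, 4.37% of the member reads there, and 4 of the 17 were found in each Cis-sEV library. miR-466b-3p reached 0, 6 and 38 reads and miR-669a-3p 0, 11 and 13. miR-466g had 11 reads in 1 library, and miR-467h, the close relative of miR-467e-5p, had 1, 3 and 1 reads.

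By family, miR-467 and miR-669 held most of the reads in both groups, and the summed level of miR-466 was lower in Cis-sEV through 1 sequence, miR-466i-5p. The 5 miR-467 5p sequences summed to 686, 946 and 732 CPM in Cis-sEV, against 500, 276 and 166 CPM in Ctrl-sEV. The ratio of means was 2.51 in CPM, where the groups did not overlap, and 1.88 with TMM factors, where the first Ctrl-sEV library (657 CPM) lay above 2 of the 3 Cis-sEV libraries (617, 861 and 617 CPM). The 10 miR-669 5p sequences summed to 571, 614 and 697 CPM in Cis-sEV, against 352, 175 and 720 CPM in Ctrl-sEV. Here the ratio was 1.51 in CPM and 1.16 with TMM factors, and the third Ctrl-sEV library was above all Cis-sEV libraries.

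The 4 miR-466 5p sequences summed to 40.8, 25.0 and 27.9 CPM in Cis-sEV, against 198, 284 and 85.1 CPM in Ctrl-sEV, a ratio of 0.165 with no overlap. All Ctrl-sEV reads of this family were reads of miR-466i-5p, its other 8 sequences having reads in Cis-sEV alone. Without miR-466i-5p the difference of the means of the 5p sum turned to 5.84 CPM higher in Cis-sEV. The miR-297 pair summed to 26.8, 51.1 and 14.5 CPM in Cis-sEV, against 0, 62.6 and 75.6 CPM in Ctrl-sEV, a ratio of 0.668, and the groups overlapped. Of the member reads, miR-467 held 53.6% in Cis-sEV and 32.8% in Ctrl-sEV, miR-669 held 41.4% and 41.1%, miR-466 held 2.99% and 21.02%, and miR-297 held 2.00% and 5.02%.

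**Figure D3:**
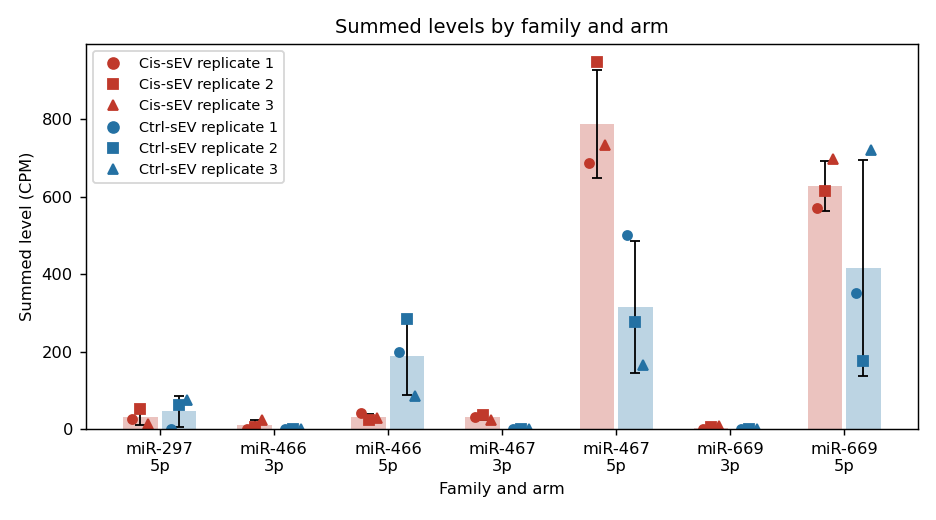
Summed level in CPM of the members of each family and arm. Bars give the mean of the 3 libraries of a group, error bars the SD and symbols the single libraries. In CPM, for the miR-467 5p sum all red symbols lie above all blue ones, for the miR-466 5p sum all lie below, and the 3p sums are at 0 in Ctrl-sEV.

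The 3p arms were seen in Cis-sEV alone, as were 11 of the 21 member sequences of 5p arms. The 6 sequences of 3p arms summed to 61, 86 and 99 reads in Cis-sEV, against 0 in each Ctrl-sEV library. By the floor of 3 reads, which covers counting error only, they were at least 21.9-fold higher in Cis-sEV. They made up 2.50%, 2.95% and 3.61% of the member reads in the Cis-sEV libraries, with a lowest 95% Wilson bound of 1.95%. In Ctrl-sEV 0 of 567, 0 of 573 and 0 of 554 member reads were 3p, with upper bounds of 0.673%, 0.666% and 0.689%. These intervals, which cover counting error only, did not overlap between the groups. The only 3p sequence with enough reads for the test was miR-467d-3p, called higher above. Of all sequences measured, 177 of 405 from 3p arms (43.7%) and 202 of 360 from 5p arms (56.1%) had a Ctrl-sEV read, and 3p sequences held 24.1% to 26.0% of the reads of Cis-sEV libraries against 19.4% to 20.5% in Ctrl-sEV. No member without an arm in its name had a Ctrl-sEV read either.

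Grouped by seed, the sequences printed above fell into a few sets. The seed GUUGUGU of miR-669a-5p, miR-669f-5p and miR-669l-5p was counted 275, 221 and 348 times in Cis-sEV and 11, 0 and 0 times in Ctrl-sEV. The seed AAGUGCG of miR-467c-5p and miR-467d-5p was counted 130, 179 and 132 times against 48, 0 and 0. In both, the reads in Ctrl-sEV came from the first library alone. The seed UAAGUGU of miR-467e-5p and miR-467h was counted 432, 500 and 450 times against 0, 198 and 86, and here the first library was the one at 0. The seed UGUAUGU of the miR-297 pair was counted 48, 88 and 26 times against 0, 45 and 40.

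By place in the genome, the 25 members with hairpins only in Sfmbt2 summed to 1307, 1630 and 1491 CPM in Cis-sEV, against 852, 451 and 887 CPM in Ctrl-sEV. All 4 members called higher were among them, and 7 others were tested and not called. Over the table, 83 of 351 tested sequences (23.6%) were called higher. The only tested members outside this set were miR-297a-5p and miR-466i-5p, so the place of the calls says little. The 3 members placed only elsewhere summed to 31.3, 23.8 and 26.8 CPM in Cis-sEV, against 198, 284 and 85.1 CPM in Ctrl-sEV, where all reads were of miR-466i-5p. Both sums were free of overlap between the groups, in opposite directions, in CPM and with TMM factors. The difference between these directions was not tested.

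Outside the families, 14 sequences held UGUGUGUG, ACACACAC or AUACAUAC, 8 of which were tested. miR-32-3p (36, 51 and 24 reads in Cis-sEV, 0 in Ctrl-sEV) and miR-672-5p (44, 57 and 24 reads, 0 in Ctrl-sEV) were called higher, each with an adjusted p of 0.0054 (edgeR). The abundant miR-574-5p, with 1915, 2209 and 2821 reads against 494, 708 and 375, had a log2 fold change of 0.22 (adjusted p = 0.658, edgeR). The 1 sequence called lower had been predicted by the authors from the reads and is a C-A repeat from end to end. It and a predicted U-G repeat are shown because they resemble the called miR-466i-5p.
predicted C-A repeat: cACACACAcacacacacacaca
predicted U-G repeat: uGUGUGUGugugugugug

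The predicted C-A repeat was counted 159, 74 and 70 times in Cis-sEV and 256, 193 and 116 times in Ctrl-sEV. The fitted log2 change was -2.90 ± 0.78 (SE, adjusted p = 0.0242, edgeR). The predicted U-G repeat printed with it was counted 35, 37 and 61 times against 90, 105 and 8, and was not called (adjusted p = 0.206). Both could match many places in the genome, like miR-466i-5p.

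Among the members and these related sequences, those with a lower level in Cis-sEV were mostly those with a long unbroken dinucleotide run. Over the whole table this was not so, since 21 of the 23 sequences called lower had no run of 15 nt or more. Runs of alternating U and G, or of C and A, measured 20 nt in miR-466i-5p, 3 to 11 nt in the other 29 members (median 8), and a median of 3 nt over all 806 sequences. In the 30 members and the 14 other sequences together, 9 had a run of 15 nt or more and 35 had a run of 13 nt or less. The mean CPM was lower in Cis-sEV for 9 of the 9 with long runs and for 2 of the 35 others, miR-297a-5p and miR-669b-5p. Among these 35, however, 20 members and 5 other sequences had no Ctrl-sEV read and could not be lower in Cis-sEV. Every sequence with a long run had Ctrl-sEV reads, so the 2 counts are not alike. The limit of 15 nt was chosen after these values had been seen, the sequences overlap in their letters, and no test was made. The count with long runs was 9 without any one of the other 5 libraries, but 4 without Ctrl-sEV replicate 1, which held most Ctrl-sEV reads of several predicted repeats.

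**Figure D4:**
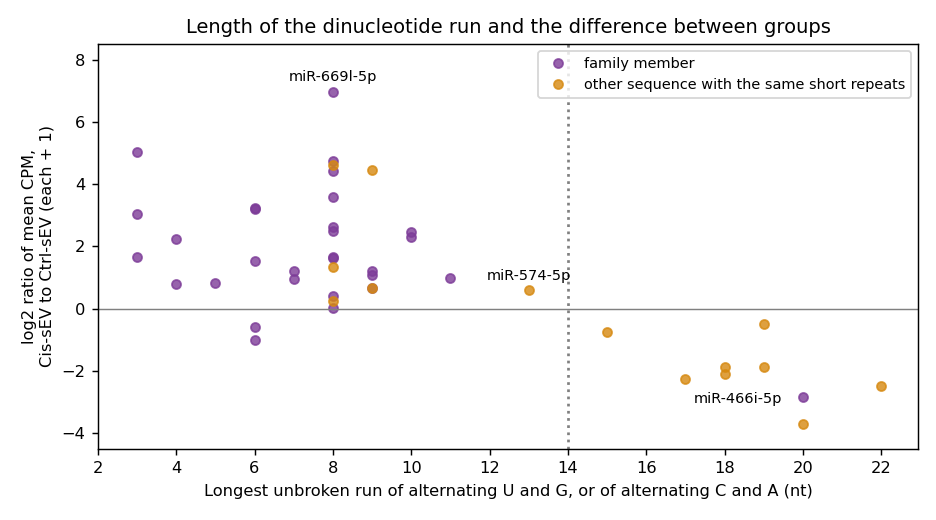
Log2 ratio of the mean CPM in Cis-sEV to that in Ctrl-sEV, with 1 CPM added to each, against the longest run of alternating U and G or of alternating C and A in nt, for 30 family members and 14 other sequences with the same short repeats. The dotted line divides the 9 sequences with runs of 15 nt or more, which all lie below 0, from the 35 others, of which 2 lie below 0. Among the 35, 20 members and 5 other sequences had no Ctrl-sEV read and could not lie below 0.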

How the data were processed

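The authors size-selected small RNA on a gel, sequenced the libraries on a DNBSEQ instrument and aligned the reads with Bowtie2 (build GRCm38.p6 in the submitters' processing notes). How reads that match several miRNAs were shared is not given in the sources used here. The deposited values are counts of reads on each mature miRNA, without normalization, in 3 Cis-sEV and 3 Ctrl-sEV libraries, which the study calls biological replicates. Its 2 columns of group means were not used.

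Reads on identical mature sequences were summed. The whole table was then tested with edgeR 4.0.16 (R 4.3.3, quasi-likelihood, TMM, filterByExpr, Benjamini-Hochberg over all tested sequences), a script checked on simulated data. The filter turns its minimum of 10 reads into a CPM limit at the median library size. A sequence had to reach this limit in 3 libraries and hold 15 reads in all. The SE given with an edgeR fit is the absolute log2 fold change divided by the square root of the F statistic. CPM were scaled by the miRNA reads of a library. Folds against 0 reads used 3 reads over the Ctrl-sEV group with TMM factors. Intervals and floors cover counting error only. Mature sequences are from the deposited table. RefSeq's table held 2 of the 32 names. Alternatives were DESeq2 1.42.0 and its size factors, limma 3.58.1 (voom), total miRNA reads, no filter, unsummed miRNAs, a replicate block and each library left out.

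The members described singly were every called one, the most abundant of each family and arm, and the 3 most abundant of each group, with their seed neighbours. miR-297c-5p, miR-467c-5p, miR-669a-5p, miR-669b-5p, miR-669f-5p and miR-669o-5p were added after their values were seen, as were the overlaps of groups with TMM factors. The families, lists and motifs were chosen with earlier results of these data known.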

Additional observations from a re-analysis of the deposited data

How the results depend on the processing

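The count of members called higher was 4 with DESeq2 size factors, total miRNA reads and DESeq2, 3 with no filter on low counts and 5 with identical sequences left unsummed. It was 1 with limma-voom and 2 to 8 with a library left out, 8 being without Ctrl-sEV replicate 1. The count called lower was 0 with total miRNA reads, with no filter and with limma-voom, and 0 to 1 with a library left out. With the replicate block, 0 members were higher and 0 lower (18 and 13 over the table, 118 sequences at an unadjusted p under 0.05). After group means were taken off, same-numbered libraries correlated at -0.0035, -0.11 and -0.020, and differently numbered ones at -0.13 to 0.16. With 3 libraries in each group, these values cannot show whether the numbers mark pairs. Over the table, the 83 higher calls became 64 with no filter, 31 with limma-voom and 45 to 144 with a library left out. The 23 lower calls became 12 with total miRNA reads, 14 with no filter and 14 with limma-voom. The difference in member share, 0.0562 percentage points, was 0.0278 without the 10 most abundant sequences in the total, 0.0263 without miR-467a-5p and 0.0726 without miR-466i-5p, the last chosen after seeing the data. Counting only members present in all 3 libraries of a group gave 17 of 30 in Cis-sEV and 2 in Ctrl-sEV, against 428 and 179 of all 806 sequences. Signs turned for miR-297a-5p with limma-voom (0.62), for miR-467e-5p with a library left out (-0.042 to 1.26, the lowest without Ctrl-sEV replicate 1), and for miR-669c-5p with DESeq2 size factors (-0.032), DESeq2 (-0.032), no filter (-0.0051) and a library left out (-0.071 to 0.27). They also turned for the miR-297 and miR-466 5p sums without their most abundant member (8.33 and 5.84 CPM). The cause was not tested.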
